A study of Mus musculus with 8 samples.

Results

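The constitutive proteasome genes were examined in mouse CD8+ T cells under continued stimulation. The cells were treated with DADA (diisopropylamine dichloroacetate, an inhibitor of the pyruvate dehydrogenase kinases) or with its solvent DMSO. The members were taken by name, as the rows whose symbol starts with Psma to Psmg and a number, leaving out the immunoproteasome genes Psmb8, Psmb9, Psmb10, Psme1 and Psme2. This gave 44 of the 22520 rows of the expression table. One of them, Psmc3ip, carries the name only: it encodes a partner of the meiotic recombinases and is not a part of the proteasome, so it is described on its own and the other 43 form the proteasome set. CD8+ T cells from the spleens of wild-type mice were isolated by depletion of other cells. They were stimulated with antibodies to CD3 and CD28 together with IL-2 up to day 6, a culture that the study uses to induce exhaustion. From day 3 they received 40 µM DADA or an equal volume of DMSO, with the stimulation going on. RNA was sequenced on day 6 from 4 libraries per group, given as biological replicates, and both groups shared every other step of the culture. The genotype field of the labels reads "control" for the DMSO libraries and "model" for the DADA libraries, while the study describes a treatment and no genetic change. The cells were bulk cultures without tumor cells, and less RNA per cell cannot be told apart from fewer cells that express a gene.

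The 26S proteasome degrades proteins that carry ubiquitin chains. Its core particle is a barrel of stacked rings, in which the outer alpha rings gate the entrance and the inner beta rings hold the catalytic sites facing a closed chamber. The regulatory particle caps the barrel: its base holds a ring of ATPases that unfold the substrate and push it inward, and its lid holds the enzyme that removes the ubiquitin chain. Dedicated chaperones that do not stay in the finished particle build the rings and the base. In T cells the catalytic beta subunits are partly replaced by immunoproteasome subunits, and peptides made by either form are loaded on MHC class I. When proteasome activity is short, the transcription factor NRF1 (Nfe2l1) is known to raise most proteasome genes together.

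The proteasome genes were lower in the DADA-treated cells across the core and the regulatory particle, by small amounts that were more even in the core than in the regulatory particle. Of the 43 genes, 41 passed a filter of at least 1 FPKM (fragments per kilobase of transcript, scaled to the depth of the library) in at least 4 of the 8 libraries. Of these 41, 35 were lower, 1 was higher and 5 were not called at a limma adjusted p under 0.05. The log2 fold changes of the 41 had a median of -0.24 on the log2(FPKM + 1) scale, with 28 of them between -0.4 and -0.1 and 7 below -0.4. No member changed by 1 or more on the log2 scale. The treatment moved a large part of the transcriptome, since 35.3% of the 10666 rows tested were lower and 30.9% were higher, around a median of -0.02. This balance turned with the scaling, since rescaling each library to the same total gave 3380 rows lower and 3604 higher, around a median of 0.01, with the members at a median of -0.21. Rows averaging 50 FPKM or more, a band chosen after the values were seen because most members lie in it, were more often lower: 52.9% of 1566 rows fell and 28.7% rose, with a median of -0.11. In that band 30 of 32 proteasome members were lower. The DMSO and DADA libraries did not overlap for 35 of the 41 members, beside 60.6% of all rows tested.

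**Figure D1:**
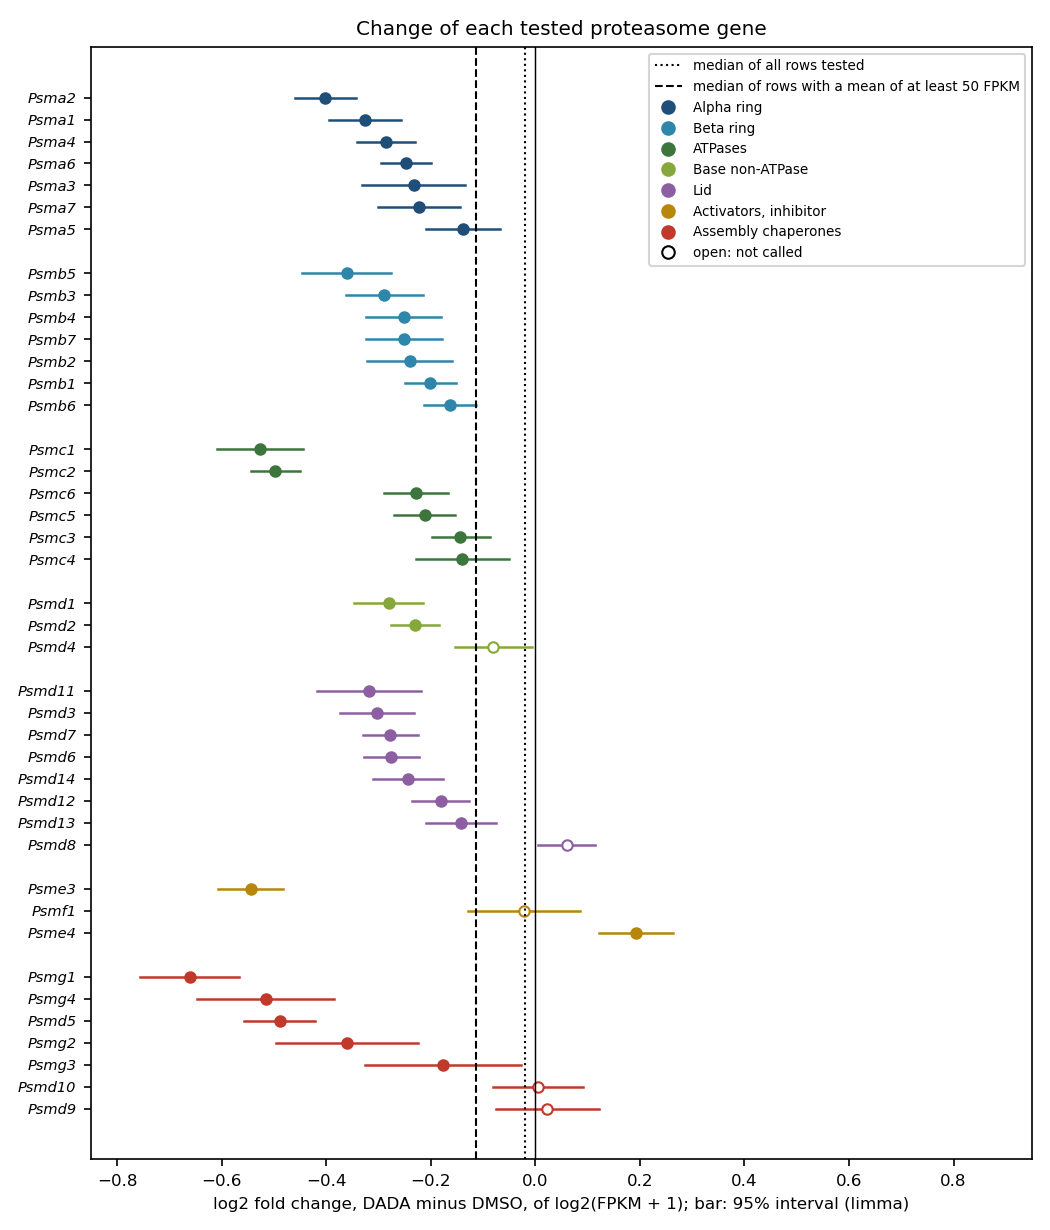
The plot gives the log2 fold change of each of the 41 tested proteasome genes (x axis, DADA minus DMSO on log2(FPKM + 1), with its 95% interval from limma) by class, with filled points for called genes and open points for the 5 not called. Nearly all points lie to the left of both the dotted line at the median of all rows (-0.02) and the dashed line at the median of rows averaging 50 FPKM or more (-0.11), and Psme4 alone is a filled point to the right of 0.

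Promoter sequences are shown for the genes at the ends of this range and for a pair of catalytic subunits. They are the 250 bases before the start of the transcript, 5′ to 3′ on the strand of the gene, from RefSeq on GRCm38.p6, and 36 of the 44 members had an entry. Psmg1 fell most, Psme4 rose most and Psmd10 changed least of the members with an entry, while Psmb5 and Psmb6 hold the core of the antioxidant response element, the site that NRF1 and its relative NRF2 read. Capitals mark that core (TGACNNNGC) or the CCAAT box, the site of the factor NF-Y, on either strand.
Psmg1 (chr16:95990961-95991210, minus strand): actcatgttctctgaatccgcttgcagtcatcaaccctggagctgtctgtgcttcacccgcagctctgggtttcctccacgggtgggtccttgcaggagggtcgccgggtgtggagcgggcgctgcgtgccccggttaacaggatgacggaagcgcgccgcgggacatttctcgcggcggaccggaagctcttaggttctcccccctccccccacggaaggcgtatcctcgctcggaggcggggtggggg
Psme4 (chr11:30771525-30771774, plus strand): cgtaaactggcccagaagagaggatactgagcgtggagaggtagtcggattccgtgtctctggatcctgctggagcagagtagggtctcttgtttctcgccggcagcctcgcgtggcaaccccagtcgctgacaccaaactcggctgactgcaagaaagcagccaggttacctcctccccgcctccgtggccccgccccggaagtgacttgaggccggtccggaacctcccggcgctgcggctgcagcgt
Psmd10 (chrX:140956712-140956961, minus strand): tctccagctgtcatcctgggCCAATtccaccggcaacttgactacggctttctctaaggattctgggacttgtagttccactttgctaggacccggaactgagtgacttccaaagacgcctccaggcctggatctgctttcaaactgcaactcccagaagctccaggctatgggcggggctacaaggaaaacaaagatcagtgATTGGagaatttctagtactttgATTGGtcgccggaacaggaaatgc
Psmb5 (chr14:54617996-54618245, minus strand): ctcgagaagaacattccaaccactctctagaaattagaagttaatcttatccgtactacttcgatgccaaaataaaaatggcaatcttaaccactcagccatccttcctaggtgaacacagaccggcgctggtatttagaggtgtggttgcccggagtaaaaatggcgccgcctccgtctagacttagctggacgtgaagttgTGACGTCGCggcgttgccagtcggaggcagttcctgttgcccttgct
Psmb6 (chr11:70525107-70525356, plus strand): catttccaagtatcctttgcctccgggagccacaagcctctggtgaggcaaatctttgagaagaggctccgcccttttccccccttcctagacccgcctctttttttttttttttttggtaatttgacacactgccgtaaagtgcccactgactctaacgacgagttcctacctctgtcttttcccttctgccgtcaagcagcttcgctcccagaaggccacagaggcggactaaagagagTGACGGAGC
The first base of the core stands 47 bases before the start in Psmb5 and 9 bases before it in Psmb6. The match of Psme4 begins 7 bases before the start on the other strand and runs past it, so it is not in capitals. Over windows from 250 bases before to 50 bases after the start, the core was in 6 of the 37 windows of 35 proteasome genes (16.2%) and in 12.4% of all 32851 windows. These were windows of Psmb5, Psmb6, Psmc6, Psmd12, Psmd9 and Psme4. Their median log2 fold change was -0.17, beside -0.25 for the 28 tested members without the core. The CCAAT box was in 13 member windows (35.1%) and in 37.4% of all windows, with a median of -0.27 for the 12 tested members that hold it and -0.22 for the 22 that do not. The matches are letters in a window, not measured binding.

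The core particle was lower throughout, with all 14 constitutive alpha and beta subunits lower in DADA-treated cells. Of all rows tested 35.3% were lower, and of rows averaging 50 FPKM or more 52.9%. Their summed level was 2224 ± 31.5 FPKM (mean ± SD, n = 4) with DMSO and 1863 ± 34.6 FPKM with DADA. The DADA libraries summed to between 1834 and 1905 FPKM and the DMSO libraries to between 2187 and 2263 FPKM. The alpha ring, which gates the core, had 7 of 7 tested genes lower, with log2 fold changes from -0.40 to -0.14. Psma2 (alpha 2) fell most among them. Its levels were 72.5, 76.8, 73.7 and 73.9 FPKM in the DMSO libraries and 54.2, 57.0, 56.0 and 56.6 FPKM in the DADA libraries (log2 fold change -0.40 ± 0.03 SE, limma adjusted p = 4.43e-07). The highest DADA value stayed well under the lowest DMSO value. Psma5 (alpha 5) fell least, from 137, 139, 144 and 142 FPKM to 129.5, 131, 119.9 and 131 FPKM (-0.14 ± 0.03 SE, limma adjusted p = 0.00312). Here also the groups stood apart, although the nearest libraries were only 137 and 131 FPKM. Psma1, Psma3, Psma4, Psma6 and Psma7 lay between these, with log2 fold changes from -0.33 to -0.22.

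The beta ring, which carries the peptidase sites, had 7 of 7 tested genes lower, from -0.36 to -0.16 in log2 fold change. Psmb5, the subunit with the chymotrypsin-like activity that proteasome inhibitors block first, fell most. It was at 156, 156, 148 and 141 FPKM with DMSO and 115, 123, 112 and 117 FPKM with DADA (-0.36 ± 0.04 SE, limma adjusted p = 1.6e-05). Psmb7, the subunit with the trypsin-like activity, was at 193, 189.9, 192 and 187 FPKM with DMSO and 153, 160.2, 171 and 157 FPKM with DADA (-0.25 ± 0.03 SE, limma adjusted p = 6.83e-05). Its DADA libraries were more spread than its DMSO libraries, but all of them were lower. Psmb6, the subunit with the caspase-like activity, fell least of the ring, from 164, 167, 159.5 and 161 FPKM to 145, 143.5, 144 and 148 FPKM (-0.16 ± 0.02 SE, limma adjusted p = 1.02e-04). The lowest DMSO library of Psmb6 stayed above its highest DADA library. The structural subunits Psmb1, Psmb2, Psmb3 and Psmb4 fell by log2 values between those of Psmb5 and Psmb6, from -0.29 to -0.20.

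Members of the ring families that belong to other tissues were not tested. Psma8, the alpha subunit of the testis proteasome, was at 0.141, 0.335, 0.220 and 0.333 FPKM with DMSO and 0.150, 0.139, 0.0680 and 0 FPKM with DADA. Psmb11, the catalytic subunit of the thymoproteasome made in cortical thymic epithelium, was at 0.00400, 0, 0 and 0.0166 FPKM with DMSO and 0, 0.0130, 0 and 0.00629 FPKM with DADA. Both were thus at or near 0 in every library.

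**Figure D2:**
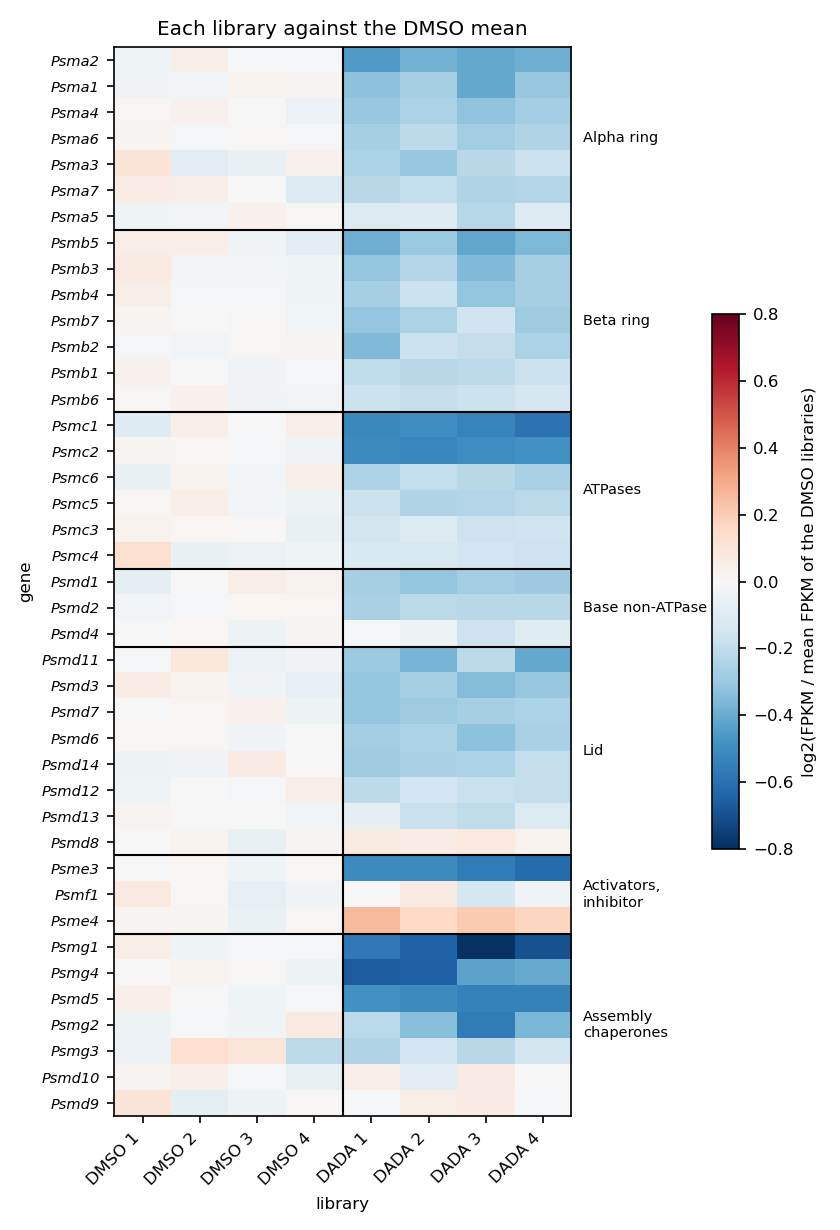
The color map gives log2 of each library's FPKM over the mean of the 4 DMSO libraries (columns, libraries; rows, the 41 tested genes by class; blue, lower; red, higher). The 4 DADA columns are blue in nearly every row and alike among themselves, with Psme4 and Psmd8 as the red rows.

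The regulatory particle was lower to a similar degree, with 15 of its 17 genes lower and 2 not called, beside 52.9% lower among rows averaging 50 FPKM or more. Its summed level was 1817 ± 11.8 FPKM (n = 4) with DMSO and 1547 ± 8.77 FPKM with DADA. The ring of 6 ATPases that unfolds substrates was lower in all 6 genes, but not evenly. Psmc1 (Rpt2), whose tail reaches into the alpha ring, was at 120.5, 134, 129.4 and 134 FPKM with DMSO and 90.6, 91.9, 89.5 and 86.1 FPKM with DADA (-0.53 ± 0.04 SE, limma adjusted p = 7.38e-07). Psmc2 (Rpt1), its neighbor in the ring, fell almost as much, from 121 ± 2.09 to 85.4 ± 0.974 FPKM (-0.50 ± 0.02 SE, limma adjusted p = 2.04e-08). Both had lower log2 values than any subunit of the core. Psmc4 (Rpt3) fell least of the ring, from 106, 93.4, 94.0 and 95.04 FPKM to 89.3, 88.9, 87.2 and 86.7 FPKM (-0.14 ± 0.04 SE, limma adjusted p = 0.0106). The first DMSO library lay highest, and without it the log2 fold change of Psmc4 was -0.10 (limma adjusted p = 0.00423). Psmc3, Psmc5 and Psmc6 fell by log2 values from -0.23 to -0.14.

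The non-ATPase part of the base holds the scaffolds Psmd1 and Psmd2 and the ubiquitin receptor Psmd4. Psmd1 (Rpn2) fell most, from 76.0, 80.1, 83.2 and 82.1 FPKM to 66.7, 65.0, 66.4 and 65.7 FPKM (-0.28 ± 0.03 SE, limma adjusted p = 1.65e-05). Psmd4 (Rpn10), which binds ubiquitin chains, was at 130.0, 131, 126 and 131.5 FPKM with DMSO and 128, 126, 116 and 121 FPKM with DADA. Its groups overlapped between 126 and 128 FPKM, and its log2 fold change of -0.08 (95% interval -0.15 to -0.01) did not pass (limma adjusted p = 0.0544). The difference between this interval and those of the scaffolds was not tested as such.

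The lid, which removes ubiquitin chains through Psmd14 (Rpn11), had 7 of 8 genes lower, beside 52.9% of rows averaging 50 FPKM or more. Psmd11 (Rpn6), which clamps the lid to the core, fell most, from 76.1, 81.1, 74.0 and 74.9 FPKM to 62.2, 59.1, 66.0 and 57.6 FPKM (-0.32 ± 0.04 SE, limma adjusted p = 1.25e-04). All DADA libraries of Psmd11 were below all DMSO libraries. Psmd14 itself fell by 0.24 on the log2 scale, from 134 ± 4.70 to 113 ± 2.97 FPKM. Psmd8 (Rpn12), the last subunit to join the lid, was the exception: it was at 123, 125, 118 and 125 FPKM with DMSO and 129, 128, 129.6 and 125 FPKM with DADA. The groups of Psmd8 touched at 125 FPKM, and its log2 fold change of 0.06 (95% interval 0.0049 to 0.115) did not pass (limma adjusted p = 0.0536). It was called higher under scaling to a common total or distribution (0.09 in both) and under median-ratio scaling (0.06).

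**Figure D3:**
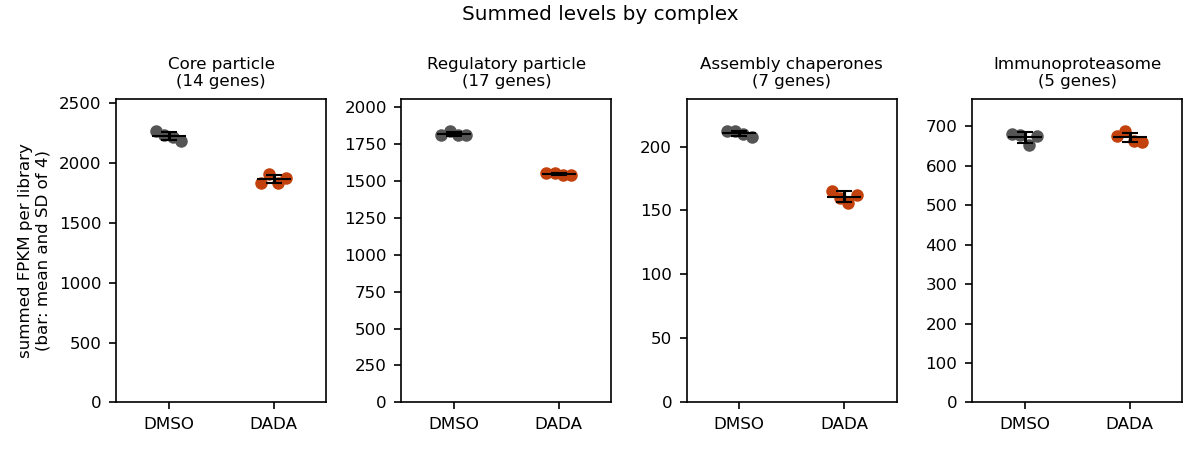
Each panel gives the summed FPKM of a complex (y axis, from 0) in each of the 4 DMSO and 4 DADA libraries, with the mean and SD as bars. The core, the regulatory particle and the assembly chaperones separate by treatment without overlap, DADA below DMSO, while the 5 immunoproteasome genes sum to 671 ± 13.1 and 671.5 ± 11.8 FPKM.

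The activators that cap the core in place of the regulatory particle moved in opposite directions. Psme3 (PA28 gamma), a nuclear activator used for substrates without ubiquitin, was at 146, 147, 142 and 147 FPKM with DMSO and 102, 102, 98.7 and 94.9 FPKM with DADA (-0.54 ± 0.03 SE, limma adjusted p = 7.76e-08). The fall of Psme3 was close to that of the ATPase gene Psmc1. Psme4 (PA200), an activator linked to the turnover of acetylated histones, was at 20.8, 20.9, 19.8 and 20.7 FPKM with DMSO and 24.6, 22.9, 23.8 and 23.2 FPKM with DADA (0.19 ± 0.03 SE, limma adjusted p = 4.05e-04). Psme4 was the only called member with a higher level, and its DADA libraries were all above its DMSO libraries. Its level stayed far under that of Psme3: the ratio Psme4 to Psme3 was 0.141 ± 0.00173 with DMSO and 0.237 ± 0.00929 with DADA. Psmf1 (PI31), which binds the core and blocks it in vitro, had overlapping groups of 11.9 to 13.2 FPKM and 11.3 to 13.1 FPKM and a log2 fold change of -0.02 (95% interval -0.13 to 0.09, limma adjusted p = 0.705).

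The assembly chaperones varied more than the core and the regulatory particle. Their 7 genes had log2 fold changes with an SD of 0.267, beside 0.140 in the regulatory particle and 0.0714 in the core. Of the 7 genes, 5 were lower, beside 35.3% of all rows tested. Psmg1 (PAC1), which pairs with Psmg2 to build the alpha ring, had the largest fall of all members. It was at 56.2, 52.9, 53.7 and 54.0 FPKM with DMSO and 36.4, 34.6, 31.4 and 33.4 FPKM with DADA (-0.66 ± 0.04 SE, limma adjusted p = 4e-07). Its partner Psmg2 (PAC2) fell by 0.36 on the log2 scale, from 49.4 ± 1.76 to 38.4 ± 3.69 FPKM. Of the second pair for the alpha ring, Psmg4 (PAC4) fell by 0.52 and Psmg3 (PAC3) by 0.18. Psmg3 had overlapping groups, 20.7 to 26.3 FPKM and 20.3 to 21.7 FPKM, and its call (limma adjusted p = 0.0395) was lost in most alternative fits. Psmd9 (p27) had the highest log2 fold change of the class (0.02, 95% interval -0.08 to 0.12, limma adjusted p = 0.668). It was at 10.1, 8.89, 9.13 and 9.46 FPKM with DMSO and 9.32, 9.72, 9.85 and 9.32 FPKM with DADA. Its libraries interleaved, and its exons share 1849 bases with a gene annotated on the opposite strand.

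The chaperones of the base can be set beside the subunits that each is known to hold, a grouping made after the values were seen and given without a test. Psmd5 (S5b) binds Psmc1, Psmc2 and Psmd2. It fell from 19.8 ± 0.444 to 13.8 ± 0.272 FPKM (-0.49 on the log2 scale), next to -0.53 and -0.50 for these ATPases and -0.23 for Psmd2. Psmd9 binds Psmc3 and Psmc6, and its value of 0.02 stood beside -0.14 and -0.23. Psmd10 (gankyrin) binds Psmc4 and Psmc5. It was at 21.99 to 23.6 FPKM with DMSO and 21.5 to 23.9 FPKM with DADA, or 0.00 on the log2 scale (95% interval -0.08 to 0.09), beside -0.14 and -0.21. The module of Psmd5 held both ATPases with the largest falls. The mean of Psmc1 and Psmc2 over that of the other 4 ATPases was 1.08, 1.15, 1.14 and 1.15 in the DMSO libraries. In the DADA libraries it was 0.892, 0.893, 0.905 and 0.894. Both ATPases had already been seen to fall most, so this ratio only restates their falls and gives no support for a module.

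**Figure D4:**
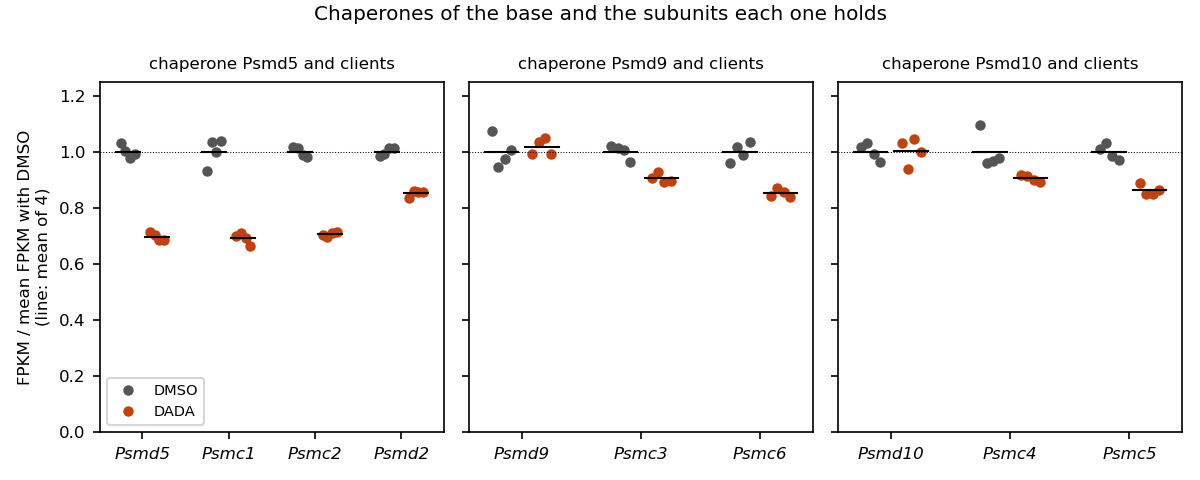
Each panel gives a chaperone of the base and the subunits it holds as FPKM over the mean of the 4 DMSO libraries (y axis, from 0), with points for libraries and lines for means. Psmd5, Psmc1 and Psmc2 lie near 0.7 in all DADA libraries, while Psmd9 and Psmd10 lie around 1.

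Changes were thus more even in the core than in the regulatory particle and the assembly chaperones, although log2 fold changes in the core still ran from -0.40 to -0.14. Levels differed far more between genes than between treatments. With DMSO, core genes ranged from 74.2 ± 1.82 FPKM (Psma2) to 206 ± 7.32 FPKM (Psmb3), and genes of the regulatory particle from 64.5 ± 0.804 FPKM (Psmd13) to 134 ± 4.70 FPKM (Psmd14). The assembly chaperones lay below both, from 9.39 ± 0.523 FPKM (Psmd9) to 54.2 ± 1.43 FPKM (Psmg1). Across the 41 members the levels with DMSO and with DADA had a Spearman correlation of 0.969, a description across genes that share the same libraries and span a wide range of levels. Within the classes it was 0.943 in the core, 0.875 in the regulatory particle and 0.857 in the assembly chaperones. The spread between replicates was small: the median coefficient of variation of a member was 2.45% with DMSO and 2.76% with DADA. The proteasome members made up 0.974% to 0.982% of the total FPKM of the DMSO libraries and 0.835% to 0.837% of the DADA libraries.

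The immunoproteasome genes, which the naming rule leaves out, served as the nearest comparison. Of the 5, Psmb8 and Psme2 were lower, Psmb9 and Psme1 were higher and Psmb10 was not called, with a median log2 fold change of 0.08. Calls in both directions were thus about as frequent as among all rows (35.3% lower and 30.9% higher). Each catalytic subunit was then set against its counterpart in the same library. The ratio of Psmb8 to Psmb5 was 1.21, 1.19, 1.24 and 1.33 with DMSO and 1.46, 1.45, 1.57 and 1.48 with DADA. The ratio of Psmb9 to Psmb6 was 0.465, 0.491, 0.479 and 0.503 with DMSO and 0.642, 0.663, 0.595 and 0.586 with DADA. The ratio of Psmb10 to Psmb7 was 0.142, 0.129, 0.129 and 0.140 with DMSO and 0.177, 0.169, 0.154 and 0.180 with DADA. In each pair the lowest DADA ratio exceeded the highest DMSO ratio. The exact permutation p was 0.0286 for each, two-sided, which is the smallest that 4 against 4 libraries allow. It stayed 0.0286 after Benjamini-Hochberg adjustment over the 3 pairs. This p only restates that the ratios did not overlap, and 60.6% of all rows tested did not overlap as single genes. Each denominator had already been seen to fall without overlap, so the p is no independent support for a change of the ratio. The ratio for Psmb5 rose with both of its genes lower, since Psmb8 fell by 0.10 on the log2 scale and Psmb5 by 0.36.

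**Figure D5:**
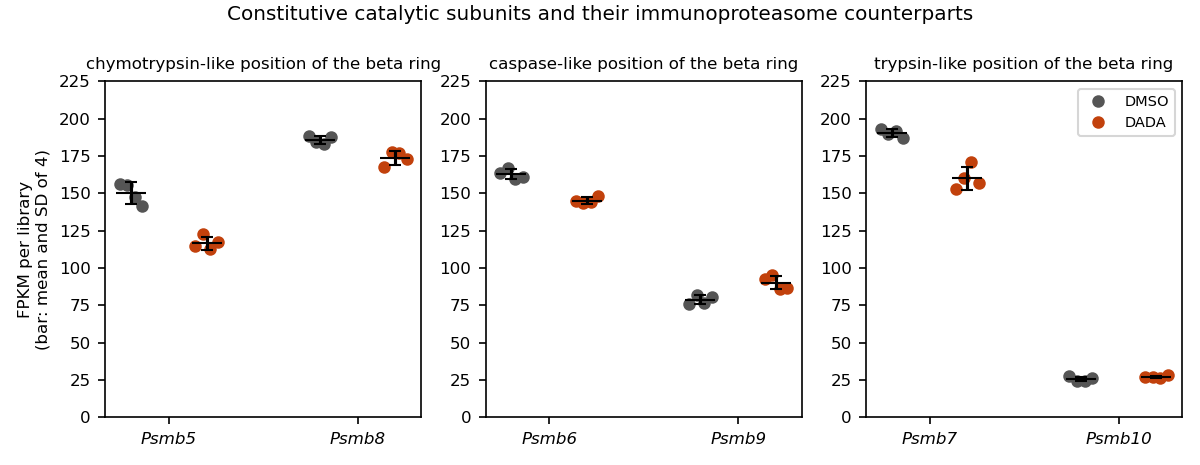
Each panel gives the FPKM (y axis, from 0) of a constitutive catalytic subunit and of its immunoproteasome counterpart in each library, with the mean and SD of 4 libraries as bars. The constitutive subunit is lower in every DADA library, while Psmb9 is higher, Psmb8 slightly lower and Psmb10 overlapping.

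Genes that work with the proteasome but carry other names were mostly lower. Of 15 proteasome-linked genes in the table, 10 were lower and none higher, with a median of -0.19, beside the 35.3% of all rows that were lower. The lowest log2 fold change was that of Uchl5 (UCH37), a deubiquitinase of the base, at 87.3 ± 4.38 and 63.1 ± 2.37 FPKM (-0.46). The highest was that of Ecpas, an adaptor of the particle (0.02, limma adjusted p = 0.448). Pomp, the chaperone that closes the core, fell by 0.41 on the log2 scale, from 84.8 ± 2.41 to 63.7 ± 1.64 FPKM. Of 7 genes of the NRF1 axis, which comprises the factor, its processing and its relative, 6 were lower. Of all rows 35.3% were lower, and of rows averaging 50 FPKM or more 52.9%. The lowest log2 fold change was that of Vcp, the ATPase that pulls NRF1 out of the membrane (-0.42). The highest was that of Nfe2l2, which encodes NRF2 (0.08, limma adjusted p = 0.0842). Nfe2l1 itself was at 81.7, 81.3, 78.8 and 86.8 FPKM with DMSO and 66.6, 68.1, 69.4 and 64.5 FPKM with DADA (-0.29 ± 0.03 SE, limma adjusted p = 3.86e-05). The transcript of this factor was lower in the same libraries as the proteasome genes, as were 35.3% of all rows. A link between the factor and these genes was not tested.

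Of 6 genes for ubiquitin supply and activation, 2 were lower and 2 higher, shares near those of all rows (35.3% and 30.9%). Rps27a, which encodes ubiquitin fused to a ribosomal protein, had the lowest value of -0.61 (limma adjusted p = 0.0741). In DADA 3 it stood at 379.9 FPKM beside 924 to 1044 FPKM in the other DADA libraries. Without that library the log2 fold change of Rps27a was -0.27 (limma adjusted p = 0.0068). The COP9 signalosome, a complex built like the lid, had 5 of 9 genes lower and 1 higher, beside 35.3% and 30.9% of all rows and 52.9% lower among rows averaging 50 FPKM or more. Its median was -0.15, from -0.44 in Cops7a to 0.09 in Cops2.

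Psmc3ip, the member that is not a proteasome part, was at 13.4, 10.6, 13.3 and 11.1 FPKM with DMSO and 7.88, 5.94, 8.05 and 9.63 FPKM with DADA (-0.57 ± 0.12 SE, limma adjusted p = 0.00213). It shares 385 exon bases with Mlx on the opposite strand, a gene with up to 26.2 FPKM, and the table does not show whether reads of the pair were separated by strand.

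The libraries carried the CD8 T cell markers, of which all 5 were called higher with DADA, by 0.08 to 0.35 on the log2 scale, beside 30.9% of all rows. The groups of 1 of them, Cd3g, overlapped (208 to 222 and 220.1 to 232 FPKM). Of 13 markers of other cell types, 2 passed the filter. Cd68, a marker of macrophages, was called higher, at 3.66 ± 0.222 and 5.32 ± 0.199 FPKM (0.44, limma adjusted p = 2.71e-05), and Cd79b, a marker of B cells, was not called. Klrb1c, a marker of NK cells under the filter, was at 0 to 0.0484 FPKM with DMSO and 0.144 to 0.249 FPKM with DADA. All 13 markers summed to 6.83 to 8.10 FPKM with DMSO and 7.92 to 9.01 FPKM with DADA, and the defining markers Csf1r and Hbb-bs were at 0 in all libraries. The table holds no fragment counts. Steps in the low FPKM values gave an estimate of 13840000 to 16300000 fragments in the DMSO libraries and 15270000 to 19100000 in the DADA libraries. Of the low values used, 39% to 46.7% in a library lay near a whole number of fragments, beside 20% by chance. At these depths a gene at 100 FPKM holds 1384 to 1910 fragments per kilobase. The counting error is then 2.29% to 2.69% for 1 kilobase of transcript, and it depends on transcript length. The part of these differences in markers and depth in the results was not tested. The study's methods name a stranded library kit and the labels a dual-mode kit, whether counting used strand was not stated, and 9 members share exon bases with a gene on the opposite strand, including Psmb7, Psmc3, Psmd1 and Psmd13. Also, 10 members, among them Psmb5, Psmb6, Psma2 and Psmc1, have a near-identical annotated gene elsewhere, counting matches on the same strand. None of these same-strand genes has a row in the expression table, so whether levels were split between copies cannot be seen. Gm609, which matches 323 bases of Psma3 on the other strand, has a row and was at 0 FPKM in every library.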

How the data were processed

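Bulk RNA-seq of 8 libraries was analysed, 4 treated with DMSO and 4 with DADA. Values were FPKM, which the authors made from their reads and deposited as one table, and the submitters' processing notes name HISAT2 2.0.5 and StringTie 1.3.3. The notes list GRCm39 and GRCh38 without a role, so the only coordinates given are those of the RefSeq promoter windows on GRCm38.p6, and the strand used in counting is not given in the sources used here. FPKM values were taken as log2(FPKM + 1). Rows with at least 1 FPKM in at least 4 of 8 libraries were kept (10666), and DADA was compared with DMSO with limma 3.58.1 (moderated variances with a trend, Benjamini-Hochberg adjustment over all rows, threshold 0.05). No count test was run, since fragments could only be estimated. Ratios were compared by exact permutation tests. Members and gene lists were chosen with earlier results of these data known. Values in every library were given for the catalytic subunits, the highest and lowest log2 fold change of each class, members called in the rarer direction and members under the filter. Members outside this rule were named after their values were seen. Alternatives were another pseudocount, other filters, other scalings, no trend, a replicate block and leaving out each library. One gene that the naming rule for lists would pick, and one marker, are not reported here.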

Additional observations from a re-analysis of the deposited data

Results flagged for a closer look

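Of 104 sets of 4 libraries examined, 6 held a library that stood apart, judged by the distance to its nearest neighbor divided by the full span of the 4 values. Chance at 1 in 20 gives about 5.2 such sets. The sets share the same 8 libraries, and sums and ratios reuse genes, so this number cannot show whether the 6 arose by chance. The 6 came from 5 libraries with at most 2 each. Psmb3 was at 217 FPKM in DMSO 1 beside 202 to 203 FPKM in the other DMSO libraries (ratio 0.909). Psmc4 was at 106 FPKM in the same library beside 93.4 to 95.04 FPKM (0.876). Psma5 was at 119.9 FPKM in DADA 3 beside 129.5 to 131 FPKM (0.893). Psmd2 was at 111 FPKM in DADA 1 beside 114 to 115 FPKM (0.858). Psme4 was at 19.8 FPKM in DMSO 3 beside 20.7 to 20.9 FPKM (0.851). The summed regulatory particle was at 1835 FPKM in DMSO 2 beside 1810 to 1814 FPKM (0.840). Each of these sets stayed on one side of the libraries of the other treatment.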

How the results depend on the processing

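The count of lower members stayed between 34 and 37 of 42, Psmc3ip included (36 as reported), with 34 under quantile normalization, 37 with the replicate block and 35 to 36 when libraries were left out in turn. The count of higher members rose from 1 to 2 under TPM rescaling, median-ratio scaling and quantile normalization, and was 1 to 2 when libraries were left out, because Psmd8 was then called. The median of the members was -0.21 under TPM rescaling. Members without a call changed sign: Psmf1 was 0.0080 under TPM rescaling and between -0.0504 and 0.0147 when libraries were left out, Psmd9 was -0.0109 under quantile normalization and between -0.0011 and 0.0543 when libraries were left out, and Psmd10 lay between -0.0137 and 0.0353. Psmg3 lost its call in 11 alternatives, among them 7 of the 8 fits that leave out a library. Psmc4 lost it under quantile normalization, and Psmd4 was called in 4 alternatives. Of the 8 libraries, 1 correlated best with its own replicate number in the other group, which cannot exclude paired cultures. With the replicate block 6995 rows were called, beside 7064 without it. Over all rows, 5741 were called where the mean had to reach 5 FPKM, and 7868 without any filter, of which 3861 were lower and 4007 higher. FPKM values hold no counts, so depth and its error are estimates, and 4 libraries per group set the precision of each value.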
